A study of Mus musculus with 6 samples.

Results

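The potassium channel genes of the mouse forebrain were taken as every entry of the count tables whose symbol begins with Kcn and a letter, without Kcne2 and Kcnj13. Of 98 such entries 96 were members, among 23282 entries in all, and they cover the pore-forming and auxiliary subunits of 15 families and 4 antisense or opposite-strand RNAs. A member was reported where at least 3 of the 6 libraries held 10 or more counts, which 71 did and 25 did not. The study asked how 10 days of a high-fat diet change the transcriptome of the brain. C57BL/6J male mice, wild type in the labels and 8 to 10 weeks old, were given a normal chow diet (NCD) or, with 60 kcal% fat, a high-fat diet (HFD) over those 10 days, and the labels name no other allele or agent. RNA came from a forebrain hemisphere without olfactory bulb and cerebellum, so regions and cell types are mixed in each library. There were 3 NCD and 3 HFD libraries, sequenced from the 3′ end of polyadenylated RNA.

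Potassium channels let K+ leave or enter a cell along its gradient, which sets the resting potential, ends action potentials and clears K+ from the space around active neurons. Voltage-gated (Kv), calcium-activated and sodium-activated subunits assemble as tetramers and open on depolarization or on a rise of the ion they sense. Inward rectifiers (Kir) and tandem-pore leak channels hold the resting potential, in neurons and in astrocytes, and beta subunits and Kv channel interacting proteins (KChIP) change the gating or traffic of the pore.

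The members are tied together by the selectivity filter, the short loop through which K+ passes. Its signature was searched in the coding sequences of GENCODE vM21 (GRCm38) as a threonine or serine, any residue, a glycine, a tyrosine or phenylalanine, and a glycine. All 76 pore-forming members with a coding sequence held it, 0 of the 16 auxiliary members did, and 492 of 21457 other genes (2.29%) held a match of the same letters. A single chain of the tandem-pore family carries a pair of pore loops, and 11 of its 14 members held 2 matches. In Kcnk1, Kcnk6 and Kcnk7 the searched pattern matched only 1 time. The stretches below belong to members whose values are described further on, with the 5 filter codons in capitals and 5 codons on either side, read 5′ to 3′ on the coding strand. The number before each is the first filter codon, counted from the start codon.
Kcnv1, codon 395: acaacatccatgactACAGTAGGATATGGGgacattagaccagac
Kcnc1, codon 400: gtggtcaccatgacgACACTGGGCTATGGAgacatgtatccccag
Kcnt1, codon 295: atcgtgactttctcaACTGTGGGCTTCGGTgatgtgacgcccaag
Kcnh2, codon 626: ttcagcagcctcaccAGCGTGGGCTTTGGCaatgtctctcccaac
Kcnj4, codon 133: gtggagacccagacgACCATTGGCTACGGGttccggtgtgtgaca
Kcnj16, codon 131: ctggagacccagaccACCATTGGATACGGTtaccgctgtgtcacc
Kcnk2, codon 157: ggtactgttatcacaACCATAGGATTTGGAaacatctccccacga
Kcnk2, codon 266: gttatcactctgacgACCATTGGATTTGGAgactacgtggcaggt
In Kcnv1, Kcnc1 and the 2 Kir genes shown, the aromatic residue of the filter is a tyrosine (TAT or TAC). In Kcnt1, Kcnh2 and both loops of Kcnk2 it is a phenylalanine (TTC or TTT). Kcnv1, which does not conduct by itself, holds the same signature as the conducting members.

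Total counts ran from 6842785 to 9689372 per library, and the members took between 0.402% and 0.486% of them. A count of 3, taken as the floor, was worth 0.316 to 0.432 CPM (counts scaled to the library total with TMM factors), which covers counting error only. HFD replicate 3 stood apart: the summed CPM of 6 pituitary hormone genes was 1264 there against 2.08 to 8.95 in the other libraries, while that of 8 midbrain markers was 24.5 against 43.9 to 61.4 and that of 8 hypothalamic markers 27.2 against 67.9 to 109. The 10 neuron markers summed to between 6420 and 6757 CPM and the 7 astrocyte markers to between 4969 and 5347 CPM in every library. The 5 erythroid markers (hemoglobin and heme synthesis genes) summed to between 421 and 519 CPM on the NCD and between 544 and 824 CPM on the HFD, with 4 of 5 called higher, and of the 6 liver genes tested 5 were called lower, with a median log2 fold change of -1.71 (unadjusted p under 0.05 in edgeR). The part of these in the values of the members was not tested. None of the markers of these lists was at 0 in all 6 libraries. NCD replicate 3 also differed from the libraries of its diet. Its chi-square per degree of freedom was 9.72 against NCD replicate 1 and 13.5 against NCD replicate 2, where those 2 libraries gave 3.55. It was the lowest library for 21.7% of all genes. Called values are given with and without HFD replicate 3, and so are some, but not all, of the others that it moved. The labels do not say that the libraries of a diet came from separate animals, so the p-values measure the spread between libraries. Where 3 values are given for a diet, they stand in the order of its replicates 1, 2 and 3.

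The forebrain held a broad set of K+ channel RNAs. Of the 70 members that were reported and tested, 17 averaged 100 CPM or more over the 6 libraries, 26 lay between 10 and 100 CPM and 27 under 10 CPM, in a range from 1.25 to 316 CPM. The 10 highest made up 50.8% of the summed CPM of all members. Among them were Kcna1 (316 CPM), Kcna2 (264 CPM), Kcnip2 (242 CPM), Kcnab2 (236 CPM), Kcnma1 (214 CPM), Kcnj4 (207 CPM), Kcnq1ot1 (206 CPM) and Kcnd2 (182 CPM). A 3′ library gives about 1 fragment per transcript, so CPM were not divided by length, and an order between genes also depends on how well each 3′ end was primed and annotated. The summed CPM of the tested members was 4744, 4516 and 4807 CPM on the NCD and 4778, 4456 and 4199 CPM on the HFD. The lowest sum was that of HFD replicate 3, and the sums of the other HFD libraries lay within or just under the NCD range.

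**Figure D1:**
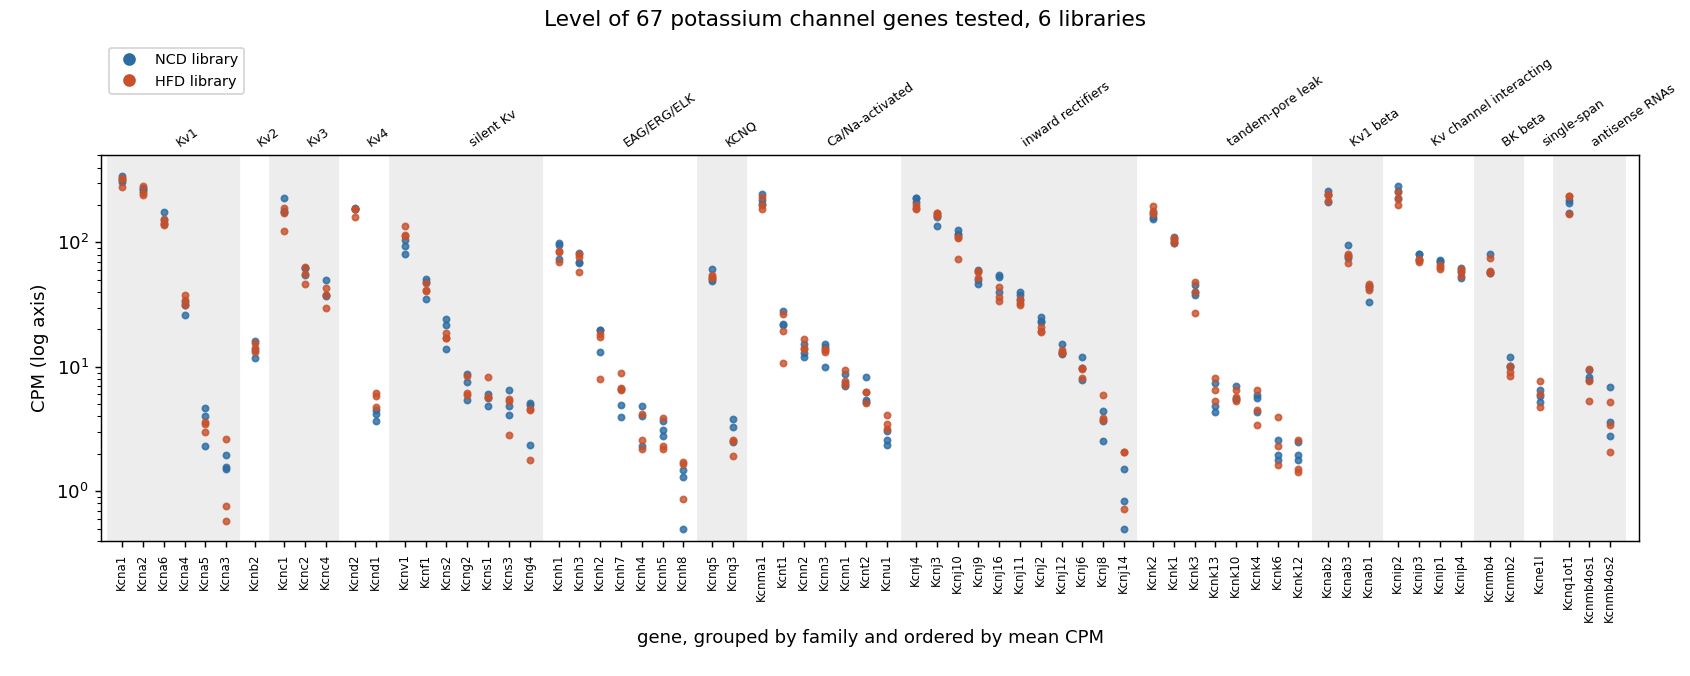
CPM on a log axis for 67 of the 70 tested potassium channel genes, grouped by family and ordered by mean, with 1 point per library (blue NCD, orange HFD). The means span from 1.25 to 316 CPM, and for most genes the points of both diets lie on top of each other.

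Of the 70 tested members, 1 was higher and 2 were lower on the HFD at an unadjusted p under 0.05 (quasi-likelihood test of edgeR), Kcnv1 and, in the other direction, Kcnj4 and Kcnj16. Over all 13771 genes tested 1.71% were called higher and 1.98% lower by the same rule, so the members' shares of 1.43% and 2.86% were near the background. With a fold change of at least 1.5 added, 0 members were called, against 1.28% of all genes. After Benjamini-Hochberg adjustment over all genes 0 members and 0% of all genes passed an adjusted p of 0.05, and the smallest adjusted p of a member was 0.979 with edgeR. DESeq2 called the same 3 members at an unadjusted p under 0.05 and 0 members after adjustment. Leaving out 1 library in turn gave between 1 member (without NCD replicate 3) and 6 members (without HFD replicate 1) at an unadjusted p under 0.05, and the same 3 without HFD replicate 3. Of all genes, 2.95%, 5.46% and 3.17% were called in these fits, in that order, against 3.68% with all libraries. In a design of 3 against 3 an exact permutation test of a single gene cannot go below a two-sided p of 0.1.

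The direction leaned to lower values: 47 members were lower and 23 higher on the HFD, with a median log2 fold change (HFD over NCD) of -0.084, where all genes split into 6969 lower and 6802 higher with a median of -0.0025. Without HFD replicate 3 the members split into 39 lower and 31 higher, with a median of -0.011. The log2 fold changes ran from -0.44 (Kcnq3) to 0.77 (Kcnj14), and 50 of 70 lay within 0.25 of 0 (71.4%, against 79.1% of all genes). In bulk RNA fewer cells of a type and less RNA per cell cannot be told apart, here and in every value that follows.

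**Figure D2:**
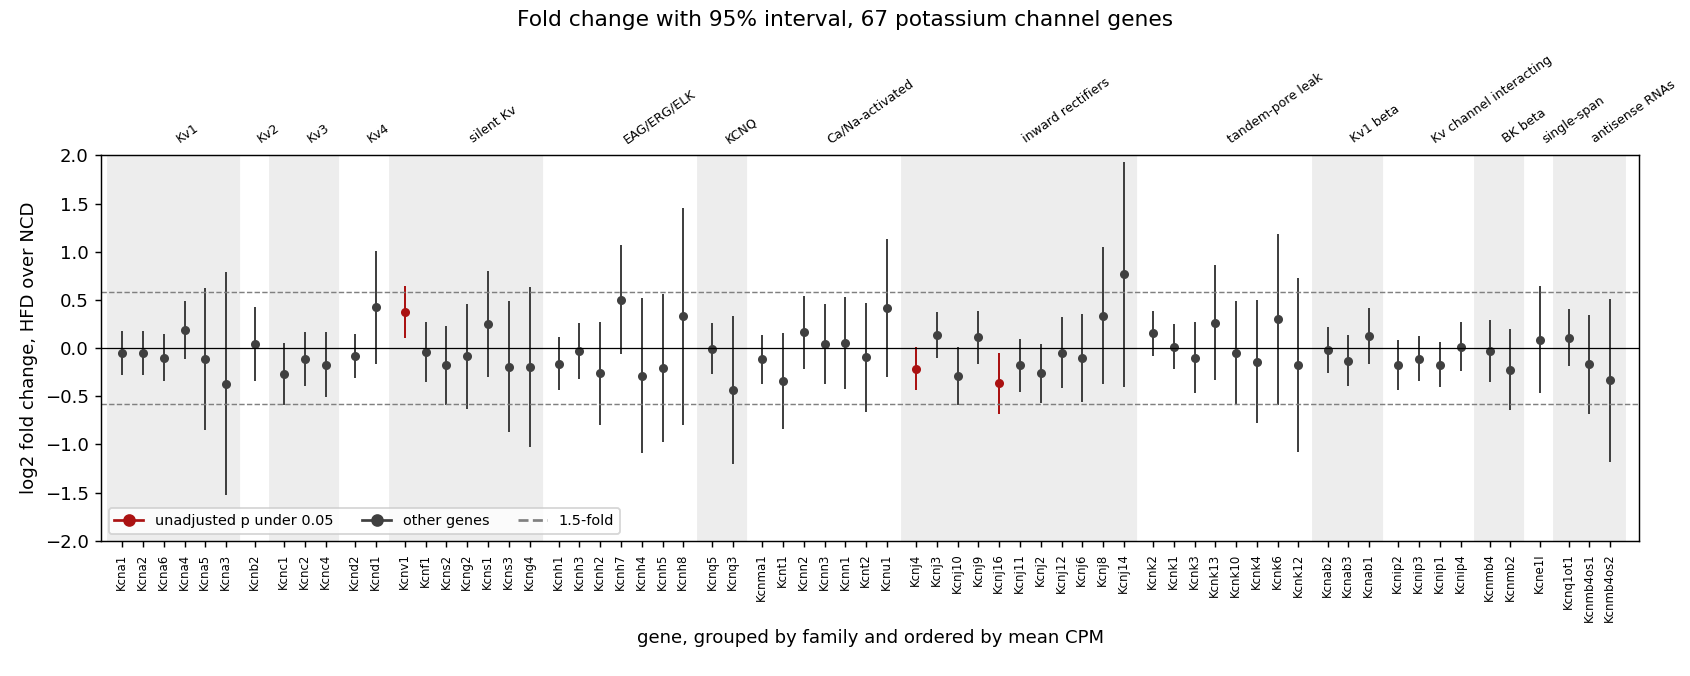
Log2 fold change (HFD over NCD) with its 95% interval for 67 of the 70 tested genes, grouped by family, with red marking an unadjusted p under 0.05 and dashed lines a fold change of 1.5. Only Kcnv1, Kcnj4 and Kcnj16 are red, all 3 lie inside the dashed lines, and the intervals widen toward the genes of low count at the right of each family.

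The 3 HFD values lay all above the 3 NCD values for Kcnv1, Kcnd1 and Kcnu1 (3 of 70, 4.29%, against 4.31% of all genes). They lay all below them for Kcnj4, Kcnj10, Kcnj2 and Kcnip1 (4 of 70, 5.71%, against 4.49%). The counts also say how large a change could have been missed. The 95% interval stayed inside a 1.5-fold change either way for 42 of the 70 members, for 39 of the 43 with a mean count of 100 or more, and for 3 of the 27 under 100. It stayed inside a 1.25-fold change for 8 members. The distance from the estimate to either end of the interval had a median of 0.27 on the log2 scale in the first group and 0.67 in the second, so for the members of low count a change of 1.5-fold was mostly not detectable at this depth.

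The Kv1 alpha subunits (Kcna genes), low-threshold channels of axons, included the highest member. Kcna1, which encodes a subunit found next to the nodes of Ranvier, had 315, 306 and 345 CPM on the NCD and 331, 323 and 279.5 CPM on the HFD. Kcna2, its frequent partner in the same tetramers, had 270.2, 274 and 261 CPM on the NCD and 284, 251 and 243 CPM on the HFD. Both ranges overlapped between the diets, with log2 fold changes of -0.048 (95% interval -0.27 to 0.17) and -0.052 (95% interval -0.27 to 0.16). Of the 6 Kv1 genes tested 0 were called, 5 were lower and 1 was higher, with a median log2 fold change of -0.075. The higher one was Kcna4, an A-type subunit, at 30.3 ± 3.92 CPM on the NCD and 34.5 ± 3.36 CPM on the HFD (mean ± SD, n = 3 each), and its groups overlapped. Kcna3, at 16, 14 and 15 counts with the NCD and 4, 7 and 19 counts with the HFD, was among the lowest, with the highest and the lowest library both on the HFD. The cytosolic Kv1 beta subunits followed: Kcnab2 had 237 ± 24.6 CPM on the NCD and 234 ± 15.9 CPM on the HFD, Kcnab3 82.7 ± 11.1 CPM on the NCD and 75.5 ± 6.17 CPM on the HFD and Kcnab1 40.2 ± 5.87 CPM on the NCD and 43.8 ± 2.38 CPM on the HFD (mean ± SD, n = 3 each). Their log2 fold changes lay between -0.13 and 0.13, and 0 of 3 were called. Exons of Kcnab2 overlap Gm16334 on the same strand, and the counting may have shared their reads.

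Kv2 subunits carry the delayed rectifier current of neuronal cell bodies, and electrically silent Kv subunits (Kcnf, Kcng, Kcns and Kcnv genes) join them as modifiers. The member that rose on the HFD belonged to this silent group. Kcnv1 (chromosome 15, 45106284 to 45114920, minus strand, GRCm38) had 105, 94.2 and 81.3 CPM on the NCD and 113, 115 and 137 CPM on the HFD. Each HFD library lay above each NCD library, and the library with the highest value was HFD replicate 3. The mean rose from 93.6 ± 11.9 to 121 ± 13.2 CPM (SD, n = 3 each). Its log2 fold change was 0.38 (SE 0.12, 95% interval 0.12 to 0.63), a fold of 1.30, with an unadjusted p of 0.0068 and an adjusted p of 0.979 in edgeR's quasi-likelihood test. The unadjusted p stayed under 0.05 in all 15 alternatives, with log2 fold changes from 0.28 to 0.47, and without HFD replicate 3 the log2 fold change was 0.28.

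The other 6 silent subunits tested did not pass. Kcnf1, at 44.7 ± 8.32 CPM on the NCD and 43.4 ± 3.65 CPM on the HFD (mean ± SD, n = 3 each), had the next highest level and a log2 fold change of -0.037. Kcnb2 had 13.9 ± 2.25 CPM on the NCD and 14.4 ± 1.24 CPM on the HFD (mean ± SD, n = 3 each).

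**Figure D3:**
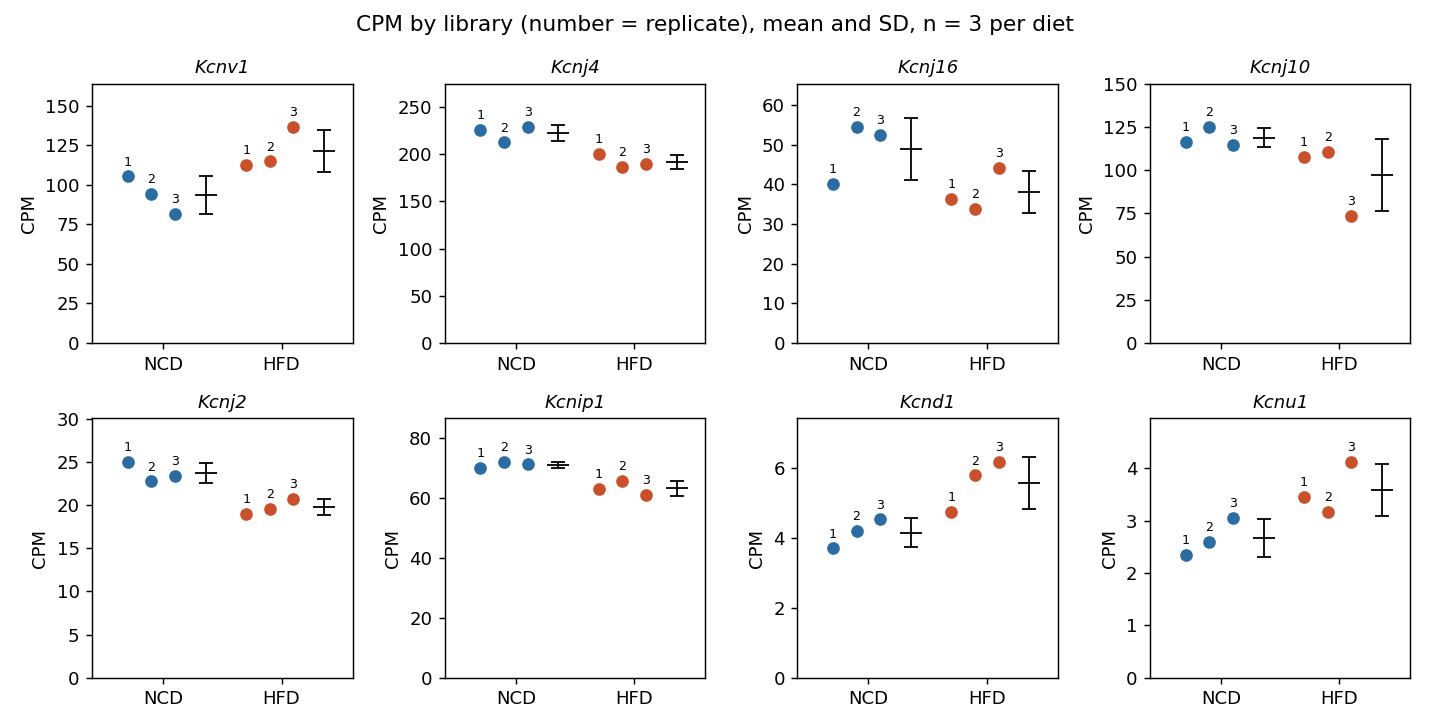
CPM per library (numbered by replicate) with the mean and SD of each diet, n = 3, for the 3 genes with an unadjusted p under 0.05 and the 5 further genes whose diets do not overlap. Kcnv1, Kcnd1 and Kcnu1 are higher in every HFD library, Kcnj4, Kcnj10, Kcnj2 and Kcnip1 are lower in every HFD library, and Kcnj16 overlaps through NCD replicate 1 and HFD replicate 3.

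Kv3 subunits (Kcnc genes) let fast-spiking neurons fire at high rates. Kcnc1, Kcnc2 and Kcnc4 were each lowest in HFD replicate 3. Kcnc1, which is strong in fast-spiking interneurons, had 177, 178 and 229 CPM on the NCD and 189, 173 and 123 CPM on the HFD. Kcnc2 had 59.6 ± 4.20 CPM on the NCD and 55.2 ± 8.26 CPM on the HFD and Kcnc4 41.5 ± 7.18 CPM on the NCD and 36.8 ± 6.56 CPM on the HFD (mean ± SD, n = 3 each). In HFD replicate 3 the level was 65.1% of the mean of the other 5 libraries for Kcnc1, 73.1% for Kcnc4 and 78.0% for Kcnc2. Over all libraries none of these was called, with log2 fold changes of -0.26 for Kcnc1 (95% interval -0.58 to 0.046), -0.11 for Kcnc2 and -0.17 for Kcnc4. Without HFD replicate 3 they were -0.10 for Kcnc1, -0.0045 for Kcnc2 and -0.048 for Kcnc4. Without HFD replicate 1 instead, Kcnc1 came to -0.39, at an unadjusted p under 0.05. It also passed with all libraries where no low-count filter was used, at -0.26, and was -0.13 without NCD replicate 3.

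Kv4 subunits (Kcnd genes) carry the A-type current of dendrites and are bound by KChIPs. Kcnd2 had 189.8, 186 and 186 CPM on the NCD and 186, 185 and 161 CPM on the HFD, and without HFD replicate 3 the libraries ran only from 185 to 189.8 CPM. The fitted log2 fold change was -0.080 (95% interval -0.30 to 0.14). Kcnd1, a minor member here, had 3.70, 4.21 and 4.53 CPM on the NCD and 4.75, 5.79 and 6.19 CPM on the HFD. The HFD values lay above the NCD values in every library, and the log2 fold change was 0.43 (SE 0.27) and did not pass. Kcnd3 had 6, 0 and 0 counts with the NCD and 0, 0 and 0 counts with the HFD, a mean of 0.123 CPM that lay under the floor.

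All 4 KChIP genes were well measured, between 57.6 and 242 CPM on average, and 0 were called. Kcnip2, which speeds the traffic of Kv4 to the membrane, had 257 ± 30.1 CPM on the NCD and 227 ± 27.8 CPM on the HFD and Kcnip3 77.7 ± 4.71 CPM on the NCD and 72.1 ± 2.14 CPM on the HFD (mean ± SD, n = 3 each). The log2 fold change of Kcnip2 was -0.18, and -0.098 without HFD replicate 3. Kcnip1 (chromosome 11, 33629339 to 33993152, minus strand) had 70.2, 72.3 and 71.3 CPM on the NCD and 63.1, 65.8 and 61.0 CPM on the HFD. Its HFD values all lay below the NCD values, by a log2 fold change of -0.17 (95% interval -0.39 to 0.052). The gene's span holds that of Kcnmb1, a BK beta subunit of smooth muscle at 13, 6 and 3 counts with the NCD and 9, 15 and 3 counts with the HFD. Of the 4 KChIPs 3 were lower and 1, Kcnip4, higher, at a log2 fold change of 0.016.

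The EAG, ERG and ELK subunits (Kcnh genes) open slowly and dampen repetitive firing. Kcnh1 had 89.3 ± 13.2 CPM on the NCD and 79.8 ± 8.26 CPM on the HFD and Kcnh3 73.1 ± 8.01 CPM on the NCD and 71.4 ± 12.2 CPM on the HFD (mean ± SD, n = 3 each), and the diets overlapped for both. The log2 fold change of Kcnh1 was -0.16, with -0.079 without HFD replicate 3 and -0.28, at an unadjusted p under 0.05, without NCD replicate 2. Of the 7 tested 0 were called, 5 were lower and 2 higher. HFD replicate 3 was the lowest library for 5 of the 7. Kcnh2, the ERG subunit also known from the heart, had 13.2, 19.6 and 19.9 CPM on the NCD and 17.4, 18.5 and 7.97 CPM on the HFD. Its log2 fold change was -0.26 (95% interval -0.79 to 0.26) with all libraries and 0.025 without HFD replicate 3. Kcnh7 had 3.95, 6.69 and 4.95 CPM on the NCD and 6.77, 6.56 and 8.94 CPM on the HFD, with a log2 fold change of 0.50 (95% interval -0.055 to 1.06). HFD replicate 3 was its highest library, NCD replicate 2 lay within the HFD range, and without NCD replicate 2 the log2 fold change was 0.73, at an unadjusted p under 0.05, which it also passed with all libraries after quantile normalization, at 0.47. Exons of Kcnh7 overlap Gca, and those of Kcnh3 overlap Mcrs1, on the opposite strand.

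KCNQ subunits form the M current, which muscarinic receptors close. Kcnq5 had 60.9, 50.7 and 48.8 CPM on the NCD and 52.8, 54.7 and 52.0 CPM on the HFD. The diets overlapped, and the log2 fold change of Kcnq5 was -0.0050 (95% interval -0.26 to 0.25), among the tighter bounds on a member. Kcnq3 was listed at only 3.19 ± 0.676 CPM on the NCD and 2.34 ± 0.364 CPM on the HFD (mean ± SD, n = 3 each). Its log2 fold change of -0.44 was the lowest of all members, with a 95% interval of -1.19 to 0.32. Kcnq1 had a mean of 0.294 CPM, while Kcnq1ot1, the imprinted RNA read from the opposite strand inside it, had 218, 206 and 171 CPM on the NCD and 237, 168 and 238 CPM on the HFD. Kcnq1ot1 was highest in HFD replicates 1 and 3 and lowest in HFD replicate 2, and its log2 fold change was 0.11 (95% interval -0.18 to 0.40).

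Among calcium- and sodium-activated subunits, Kcnma1 (the BK channel, opened by calcium and voltage together) had 218, 203 and 247 CPM on the NCD and 232, 200.4 and 185 CPM on the HFD. The diets overlapped, with a log2 fold change of -0.12 (95% interval -0.36 to 0.13). Kcnt1, a sodium-activated subunit, had 21.7, 22.0 and 28.1 CPM on the NCD and 26.6, 19.5 and 10.7 CPM on the HFD. HFD replicate 1 lay within the NCD range and HFD replicates 2 and 3 under it, and HFD replicate 3 held 45.5% of the mean of the other 5 libraries. The log2 fold change of Kcnt1 was -0.34 (95% interval -0.83 to 0.14) with all libraries, -0.069 without HFD replicate 3 and -0.65 without HFD replicate 1, the last at an unadjusted p under 0.05, which it also passed with all libraries where no low-count filter was used (-0.34). Kcnu1, a relative of Kcnma1 known from sperm, had 2.35, 2.59 and 3.06 CPM on the NCD and 3.45, 3.17 and 4.12 CPM on the HFD. The diets did not overlap, at a log2 fold change of 0.42 (95% interval -0.29 to 1.12) from a mean of 25.8 counts per library. The SK genes Kcnn1, Kcnn2 and Kcnn3 lay between 7.93 and 14.2 CPM on average, with log2 fold changes from 0.042 to 0.16. The BK beta subunit of neurons, Kcnmb4, had 65.4 ± 13.6 CPM on the NCD and 63.8 ± 9.78 CPM on the HFD and Kcnmb2 10.7 ± 1.12 CPM on the NCD and 9.22 ± 0.889 CPM on the HFD (mean ± SD, n = 3 each). The opposite-strand RNAs Kcnmb4os1 and Kcnmb4os2 share exon bases with Kcnmb4 and had means of 8.01 and 3.99 CPM.

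Inward rectifiers held both genes that fell at an unadjusted p under 0.05. Kcnj4 (chromosome 15, 79483714 to 79505241, minus strand), a Kir2 subunit of forebrain neurons, had 226, 213 and 229 CPM on the NCD and 199.9, 186 and 189 CPM on the HFD. Each HFD library lay below each NCD library, and the spread within a diet was small, at 222 ± 8.69 CPM on the NCD and 192 ± 7.19 CPM on the HFD (mean ± SD, n = 3 each). The log2 fold change was -0.21 (SE 0.099, 95% interval -0.42 to -0.0035), with an unadjusted p of 0.0467 and an adjusted p of 0.979 in edgeR. It was -0.20 without HFD replicate 3, still under 0.05. The p rose over 0.05 when any 1 of the other 5 libraries was left out, with log2 fold changes of -0.20, -0.25 and -0.19 without NCD replicates 1, 2 and 3 and -0.24 and -0.19 without HFD replicates 1 and 2. Its nearest relatives in the Kir2 group did not pass. Kcnj2 (chromosome 11, 111066164 to 111076821, plus strand) had 25.1, 22.8 and 23.4 CPM on the NCD and 19.0, 19.6 and 20.8 CPM on the HFD, all HFD values below all NCD values, at a log2 fold change of -0.26 (95% interval -0.55 to 0.029). Kcnj12 had 13.6 ± 1.52 CPM on the NCD and 13.2 ± 0.369 CPM on the HFD (mean ± SD, n = 3 each). Kcnj14 had 4, 14 and 8 counts with the NCD and 5, 19 and 15 counts with the HFD, and its log2 fold change of 0.77 was the highest of all members and the only one past a fold change of 1.5, with a 95% interval of -0.39 to 1.93 and overlapping groups.

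Kcnj10 and Kcnj16 encode the Kir4 and Kir5 subunits that pair in the membrane of astrocytes. Kcnj16 (chromosome 11, 110968033 to 111027968, plus strand) had 40.0, 54.5 and 52.4 CPM on the NCD and 36.3, 33.8 and 44.1 CPM on the HFD. The groups overlapped, because NCD replicate 1 lay under HFD replicate 3. The log2 fold change was -0.37 (SE 0.14, 95% interval -0.67 to -0.061), with an unadjusted p of 0.0218 and an adjusted p of 0.979 in edgeR. The p was over 0.05 without NCD replicate 2, NCD replicate 3, HFD replicate 1 or HFD replicate 2, where the log2 fold change was -0.28, -0.32, -0.34 and -0.29. Without HFD replicate 3 it was -0.49, with the p under 0.05. Kcnj10 (chromosome 1, 172341210 to 172374085, plus strand) had 117, 125 and 115 CPM on the NCD and 108, 111 and 73.4 CPM on the HFD. All HFD values were below all NCD values, but HFD replicate 3 lay far under the rest, at 63.8% of the mean of the other 5 libraries. The log2 fold change of Kcnj10 was -0.29 (95% interval -0.57 to 0.0029) and -0.12 without HFD replicate 3. It passed an unadjusted p of 0.05 without HFD replicate 1 (-0.36) or HFD replicate 2 (-0.39). With all libraries it also passed after quantile normalization (-0.32), without a low-count filter (-0.28), with 10 counts in every library (-0.29) and with the replicate block (-0.31). For the 7 astrocyte markers the median log2 fold change was -0.013, and 0 of 7 were called.

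Several Kir genes are neighbours. Kcnj16 and Kcnj2 lie 38.2 kb apart on chromosome 11, and Kcnj9 and Kcnj10 11.9 kb apart on chromosome 1. Of the G protein-gated subunits, which answer to inhibitory receptors, 0 were called: Kcnj3 had 155 ± 16.5 CPM on the NCD and 169.8 ± 4.65 CPM on the HFD and Kcnj9 52.0 ± 7.08 CPM on the NCD and 56.2 ± 3.48 CPM on the HFD, while Kcnj6 had 9.89 ± 2.04 CPM on the NCD and 9.22 ± 0.886 CPM on the HFD (mean ± SD, n = 3 each). Kcnj11, the pore of the ATP-sensitive channel of neurons, had 37.5 ± 3.06 CPM on the NCD and 33.2 ± 1.89 CPM on the HFD and Kcnj8, that of vascular cells, 3.55 ± 0.956 CPM on the NCD and 4.50 ± 1.22 CPM on the HFD (mean ± SD, n = 3 each). Over the 11 inward rectifiers tested 4 were higher and 7 lower, with a median log2 fold change of -0.10. Their summed CPM was 683, 693 and 682 CPM on the NCD and 654, 644 and 607 CPM on the HFD. The sum was lower in every HFD library than in any NCD library, with an SD of 5.94 CPM among the NCD and 24.7 CPM among the HFD libraries. Without Kcnj4, a sum added after the values were seen, it was 458, 480.2 and 453 CPM on the NCD and 454, 457 and 417 CPM on the HFD, and the diets overlapped. The summed CPM of the tandem-pore channels, given below, separated narrowly in the other direction.

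Tandem-pore channels (Kcnk genes) pass the background K+ leak. Kcnk2, a mechanosensitive and fatty acid-sensitive channel, had 161, 174 and 154 CPM on the NCD and 178, 169.6 and 196 CPM on the HFD, and Kcnk1 had 110.0, 102 and 98.6 CPM on the NCD and 106, 109 and 98.9 CPM on the HFD. The diets overlapped for both, with log2 fold changes of 0.15 (95% interval -0.070 to 0.38) and 0.016 (95% interval -0.20 to 0.24). Kcnk3, an acid-sensitive leak channel, had 37.8, 39.7 and 45.3 CPM on the NCD and 47.9, 39.8 and 27.1 CPM on the HFD. Its log2 fold change was -0.098 with all libraries and 0.094 without HFD replicate 3. The 8 tested split into 4 higher and 4 lower, 0 were called, and the median log2 fold change was -0.016. The other 5 averaged between 1.95 and 6.13 CPM. The summed CPM of all tandem-pore members was 330, 337 and 320 CPM on the NCD and 359, 338 and 344 CPM on the HFD. This sum was higher in every HFD library than in any NCD library, but HFD replicate 2 (338.3 CPM) barely passed NCD replicate 2 (336.8 CPM). Kcnk2 held the largest part of the sum, which was not taken without it. Among the family sums only this one and that of the inward rectifiers separated. Exons of Kcnk4 overlap Catsperz on the same strand. Of the single-span regulatory subunits Kcne1l was tested, at 5.82 ± 0.644 CPM on the NCD and 6.15 ± 1.45 CPM on the HFD (mean ± SD, n = 3 each).

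Of the 25 members under the count rule, 10 had no count in any library, among them Kcna7, Kcne1, Kcnh6, Kcnj1, Kcnk9, Kcnk15, Kcnk16, Kcnk18 and Kcnv2. A library's floor of 3 counts allows each of them up to 0.316 to 0.432 CPM as these files were counted. A 0 may understate a gene here: Drd2, a dopamine receptor of striatal neurons, held 0, 0 and 0 counts with the NCD and 0, 1 and 0 with the HFD, where the 8 striatum markers summed to between 906 and 1007 CPM. The other 15 held a few counts, with means of up to 0.986 CPM. Just inside the rule were Kcne4, at 7, 7 and 24 counts with the NCD and 4, 10 and 12 counts with the HFD, and Kcnj14, which passed with 2 HFD libraries and 1 NCD library. Just outside were Kcnmb1, given above, and Kcnk5, at 3, 6 and 4 counts with the NCD and 14, 3 and 3 counts with the HFD. Kcne4 passed the rule but not edgeR's own filter, and without that filter its log2 fold change was -0.33.

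HFD replicate 3 was the lowest of the 6 libraries for 25 of the 70 tested members (35.7%), where it was the lowest for 27.1% of all genes. The low members came from different families: besides the Kv3 genes given above, Kcng4 stood at 41.5%, Kcnh2 at 45.0%, Kcnt1 at 45.5% and Kcnk3 at 64.3% of the mean CPM of the other 5 libraries. HFD replicate 3 was also the highest library for 12 members, among them Kcna3 at 204%, Kcnk6 at 194%, Kcnj8 at 162% and Kcnh7 at 155%. That number was not unusual: HFD replicate 1 was the highest for 12, NCD replicate 1 for 15 and NCD replicate 3 for 19. These genes were picked for their values in this library and are a description of it. Some of the percentages rest on few counts there: 13 for Kcng4, 19 for Kcna3, 29 for Kcnk6 and 43 for Kcnj8. Kcnv1, Kcnj4 and Kcnj16 keep an unadjusted p under 0.05 without it. The pituitary, midbrain and hypothalamic marker sums given above move with it too, and their part in these values was not tested.

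**Figure D4:**
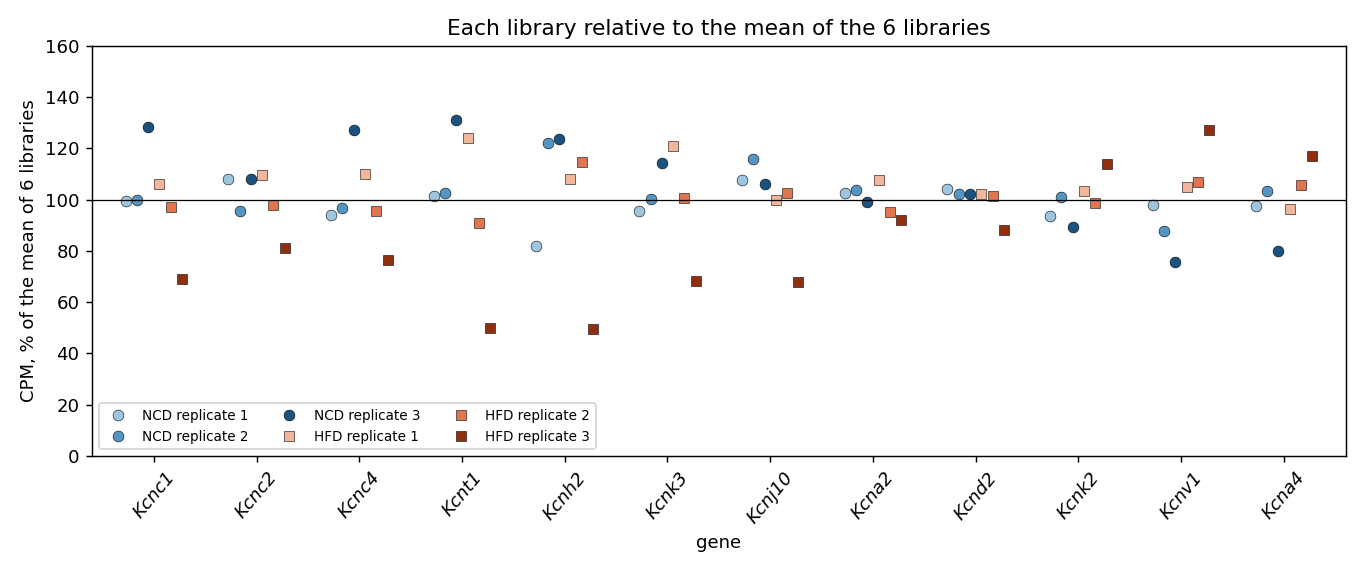
CPM of each library as a percentage of the mean of the 6 libraries (horizontal line at 100) for 12 potassium channel genes, circles NCD and squares HFD, darker with the replicate number. HFD replicate 3 is the lowest point for Kcnc1, Kcnc2, Kcnc4, Kcnt1, Kcnh2, Kcnk3, Kcnj10, Kcna2 and Kcnd2 and the highest for Kcnk2, Kcnv1 and Kcna4.

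Beyond the Kcn symbols, 22 partner genes were followed (accessory and anchoring proteins of Kv channels, sulfonylurea receptors, leucine-rich repeat subunits of BK and the Hcn pacemaker channels), of which 20 were tested. Their median log2 fold change was -0.057, and 1 of the 20 was called lower and 0 higher at an unadjusted p under 0.05, against 1.98% and 1.71% of all genes. Hcn3, a hyperpolarization-activated channel that passes Na+ and K+, had 9.26, 10.7 and 6.95 CPM on the NCD and 5.18, 6.56 and 2.89 CPM on the HFD. The HFD values lay under the NCD values in every library, by a log2 fold change of -0.86 (SE 0.29, unadjusted p = 0.00808 in edgeR, adjusted p = 0.979). Without HFD replicate 3 it was -0.60, with the unadjusted p still under 0.05. The highest partner, Ank3, which anchors channels at the axon initial segment, had 742, 701 and 731 CPM on the NCD and 782, 672 and 489 CPM on the HFD. HFD replicate 1 was its highest and HFD replicate 3 its lowest library, and the mean of HFD replicates 1 and 2 was 727 CPM against an NCD mean of 725 CPM. Lrrc52 was at 0 in all libraries.

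Of 13 K+ pump and cotransporter genes all were tested, with a median log2 fold change of -0.050, and 1 was called lower and 0 higher, against 1.98% and 1.71% of all genes. Atp1b2, the beta subunit of the glial Na+/K+ pump, had 239, 254 and 289.8 CPM on the NCD and 242, 234 and 163 CPM on the HFD. Its log2 fold change was -0.29 (SE 0.14, unadjusted p = 0.0456 and adjusted p = 0.979 in edgeR). The p rose over 0.05 without HFD replicate 3, at -0.14, without NCD replicate 2, at -0.31, and without NCD replicate 3, at -0.21. With all libraries it was also over 0.05 when scaled by library size alone (-0.31) or with the replicate block (-0.31). Atp1b1, the highest of the list, had 3220.0 ± 16.5 CPM on the NCD and 3208 ± 99.8 CPM on the HFD (mean ± SD, n = 3 each), a log2 fold change of -0.0052.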

How the data were processed

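QuantSeq 3′ libraries of forebrain RNA were trimmed by the authors, aligned to mm10 with Bowtie2, and counted per gene with Bedtools from unique and multiple alignments. The deposited values are raw read counts without normalization, and the quantile normalization of the study's methods came later. The annotation and the use of strand are not given in the sources used here, so reads of a gene and of an RNA on its opposite strand cannot be told apart: exons of 29 members overlap such an RNA and those of 2 a gene on the same strand. A symbol is held by more than 1 entry for 79 entries, none of them a member.

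All genes were fitted together in R 4.3.3 with edgeR 4.0.16 (filterByExpr at min.count 10 and min.total.count 15, TMM, glmQLFit, glmQLFTest, diet as the only term, Benjamini-Hochberg adjustment). This left 13771 genes, 70 of them reported members. The common biological coefficient of variation was 0.126. Standard errors are the log2 fold change over the square root of F, and 95% intervals use the fitted degrees of freedom. Libraries of a diet differed by 3.55 to 16.7 times the sampling noise (chi-square per degree of freedom), so none was a mere resampling of another. This does not show that they came from separate animals. The main fit did not pair same-numbered libraries of the diets. The correlations of their deviations were -0.03, 0.05 and -0.06. With 3 libraries per diet these values cannot show whether libraries of the same number shared a batch.

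Alternatives were DESeq2 1.42.0 size factors or its Wald test, upper-quartile scaling, library size alone, quantile normalization of log2(CPM + 1) with limma 3.58.1, no low-count filter, a filter of 10 counts in all 6 libraries, removal of genes above 2% of a library's counts, the replicate number as a block, and leaving out 1 library at a time. The fits were tested on simulated counts. Members and lists were chosen with earlier results of these data known, and no list was tested. Genes named are, per family, the 2 with the highest mean, members with an unadjusted p under 0.05, a fold change of 1.5 or separate diets, those next to the count rule, and of the partner and pump lists those under the same p and the highest. Other genes were named after their values were seen. Coordinates and coding sequences are from GENCODE vM21 on GRCm38. Plots were drawn in Python 3.11.15 with matplotlib 3.10.9 from tables handled in pandas 2.3.3 and numpy 2.4.6. The values of a few members are not reported here.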

Additional observations from a re-analysis of the deposited data

How the results depend on the processing

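The 3 members with an unadjusted p under 0.05 became 5 with quantile normalization and limma and 5 without the low-count filter. They numbered between 1 (without NCD replicate 3) and 6 (without HFD replicate 1) when a library was left out. The share of all genes called moved too. It was 3.68% in the main fit, 3.71% with quantile normalization and limma and 4.76% without the filter. Without NCD replicate 3 it was 2.95%, and without HFD replicate 1 it was 5.46%. Kcnv1 was among the called members in all 15 alternatives, Kcnj16 lost its place in 4 and Kcnj4 in 7. With a fold change of 1.5 added, 0 members became 0 to 1 when a library was left out, Kcnh7 without NCD replicate 2 and Kcnt1 without HFD replicate 1. At an adjusted p of 0.05 the count was 0 in every alternative, DESeq2 included. Members whose diets did not overlap numbered 7, and 11 to 20 when a library was left out, since fewer libraries overlap less often by construction. The share of all genes in those fits is not given here, so 11 to 20 is not a result about the members. The median log2 fold change of -0.084 became -0.011 without HFD replicate 3 and lay between -0.087 and -0.011 over the libraries left out. The summed CPM was 211 lower on the HFD, a difference of -211, and -358 to -72.2 when a library was left out. With the replicate block the count of members stayed at 3, with Kcnj10 in the place of Kcnj4. Whether libraries of the same number share a batch is not known. None of the named members with an unadjusted p under 0.05 turned its direction in any of the 15 alternatives, while some uncalled members did. Without HFD replicate 3 the sign changed for Kcna1 (0.023), Kcnab2 (0.039), Kcnh2 (0.025), Kcnh3 (0.10), Kcnk3 (0.094) and Kcnq5 (0.012). Other libraries left out changed signs too, as for Kcnmb4 (0.15) and Kcnf1 (0.060) without NCD replicate 1 and Kcnb2 (-0.064) without NCD replicate 3. Depth limits the members under 100 counts, where the intervals were mostly wider than a 1.5-fold change.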
